A study of Homo sapiens with 6 samples.

Results

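The genes described here belong to families of enzymes known for adding chemical groups to histones and DNA, or removing them. They were measured in a breast cancer cell line sorted into a CD104high and a CD104low population. Members were taken by symbol: the KDM, SETD, PRMT, HDAC, SIRT, KAT, NSD, SUV39H, EHMT, DNMT, TET and KMT5 families. The name pattern took 77 of the 15024 genes in the deposited table, 1 of these was left out by rule, and 76 remained. No measured value was used to choose them. They fall into 39 writers, which place a mark, and 37 erasers, which take one off, in 8 enzyme classes. The enzymes of the COMPASS family, which methylate lysine 4 of histone H3, are outside the pattern except for SETD1A and SETD1B, whose names it takes.

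The cells were MDA-MB-231, an established triple-negative breast cancer line that grows in a largely mesenchymal form. All of them carried the non-targeting guide (sgNT) and had been kept in 10 µM forskolin, an activator of adenylyl cyclase and thereby of protein kinase A, over 14 days. The CD104high group held CD44-positive cells with high CD104 (integrin beta 4), called hybrid epithelial-mesenchymal by the submitters, and the CD104low group held CD44-positive cells with low CD104, called mesenchymal. Each group had 3 libraries of total RNA, and whether the guide-bearing cells were a pool or a clone is not given in the sources used here. The 2 groups share line, guide and forskolin, so that nothing here separates an effect of forskolin, and MLL3-mutant cells were not analysed here.

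The libraries held between 52088604 and 56958065 gene reads. ITGB4, the gene of the sort marker, lay between 15970 and 19493 normalised reads in CD104high and between 2317 and 3802 in CD104low, a log2 fold change of 2.54 (adjusted p = 4.1e-05). CD44 did not pass the test (−0.16, adjusted p = 0.113), and VIM, a marker of the mesenchymal form, was at 20735 or more in every library. Of genes that such a line should hold at low level, ERBB2 was between 7443 and 9262 and GATA3 between 1089 and 1975. Neither was near the floor. ERBB2 averaged 1439 per kilobase of exon and was above in every CD104high library without passing the test (0.20, adjusted p = 0.0501). ESR1 and PGR of the same kind, and PTPRC and CD3E of other cell types, had no values in the deposited table. The endothelial gene PECAM1 and the fibroblast gene DCN did not exceed 10 in any library, whereas the collagen gene COL1A2 averaged 1455.9 in CD104high and 541.0 in CD104low (adjusted p = 0.00402), and its part in the results below was not tested. Same-numbered libraries deviated from their group means together, and both libraries numbered 3 stood apart from the others on the second principal component.

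Histones are marked on their tails by methyl groups on lysine and arginine and by acetyl groups on lysine, and DNA is marked by methyl groups on cytosine. Methyltransferases draw the methyl group from S-adenosylmethionine and acetyltransferases draw the acetyl group from acetyl-CoA, while the erasers use zinc and water, NAD, flavin, or iron with oxygen and 2-oxoglutarate. Many of these enzymes also modify other proteins, and some, such as PRMT3, SETD3 and HDAC6, are described below by such targets only. Most of the enzymes act inside large complexes that decide where they are placed. In breast cancer several of them are known for their part in the epithelial-mesenchymal transition, such as KDM1A in repressor complexes recruited by SNAI1.

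All 76 members passed the filter on low values and were tested with all 14343 genes that did. The test was limma on log2(normalised read count + 1) with Benjamini-Hochberg adjustment over all tested genes, and a gene is called where the adjusted p is under 0.05. In CD104high cells 9 members were called higher, against a background of 12.1% of all tested genes, and 14 were called lower, against a background of 11.3% (23.4% in either direction). Of the members this is 11.8% higher and 18.4% lower. The higher members were HDAC5, TET1, PRMT2, KAT2B, HDAC11, HDAC6, KDM5B, KDM1B and SIRT5, and the lower ones PRMT3, PRMT1, PRMT5, SETD6, SUV39H2, NSD2, HDAC2, SETD7, DNMT1, HDAC1, KMT5A, PRMT6, KAT2A and KDM1A. The changes were small: the log2 fold changes of the 23 called members ran from 0.21 to 0.80 in size, and no member reached 1. In a population, fewer cells with a transcript and less of it per cell cannot be told apart.

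With all 6 libraries, writers had more calls lower than higher and erasers more higher than lower. Of the 39 writers 2 were called higher (5.13%) and 11 lower (28.2%), against 12.1% and 11.3% of all tested genes, and 26 had a fold change below 0, with a median of −0.08 on the log2 scale. Of the 37 erasers 7 were called higher (18.9%) and 3 lower (8.11%), and 24 had a fold change above 0, with a median of 0.09. The median over all tested genes was 0.01, with 1730 called higher and 1625 lower. Of these 14343 genes 7340 had a fold change above 0 and 7003 below 0. The difference between writers and erasers was not tested, since the members are neither independent nor a sample of genes. Leaving out CD104low replicate 2 brought the writers' median to −0.04, and leaving out CD104high replicate 3 brought it to −0.05. Leaving out CD104high replicate 1 or CD104low replicate 1 brought the erasers' median to 0.04, CD104high replicate 2 or CD104low replicate 3 brought it to 0.06, and it was 0.03 once the trend with gene length and GC content was removed. Leaving out a library gave 0 to 2 writers higher and 6 to 10 lower. The fewest higher writers came without CD104low replicate 2 and the fewest lower ones without CD104high replicate 1. Erasers numbered 2 to 6 higher and 0 to 4 lower, both fewest without CD104high replicate 1. With the libraries paired by number and the length and GC trend removed, 8 erasers were higher and 6 lower.

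The authors' deposited table, made with another test, has an adjusted p under 0.05 for the same 23 members in the same directions, where 14.3% of the tested genes are higher and 14.2% lower, 28.6% in all. The remaining 53 members were not called, and for 44 of these the 95% interval of the log2 fold change lay within 0.5 of 0. Groups did not overlap for 10 members that were above in every CD104high library and 19 that were below, where 19.9% and 21.3% of all tested genes do so, 41.2% in all. Leaving out 1 library left fewer libraries to every test and lowered the calls over all tested genes from 3355 to between 1805 and 3314. Members lost calls at larger as well as smaller fold changes. Without CD104high replicate 1, PRMT2 lost its call at 0.57 and KDM5B at 0.31, against 0.50 and 0.36 with all 6 libraries. Without CD104high replicate 1 there were 3 higher and 6 lower members (background 7.08% and 5.61%), without CD104high replicate 2 there were 6 and 8 (7.84% and 6.33%), and without CD104high replicate 3 there were 5 and 8 (9.6% and 8.41%). Without CD104low replicate 1 there were 5 and 9 (10.4% and 8.95%), without CD104low replicate 2 there were 4 and 8 (8.95% and 7.22%), and without CD104low replicate 3 there were 8 and 14 (12.4% and 10.8%). Across these and all other settings tried, 18 in all, 8 members kept their call: HDAC5, TET1, PRMT3, PRMT1, SETD6, SUV39H2, NSD2 and SETD7. None of the 23 changed direction in any of the 18 settings.

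**Figure D1:**
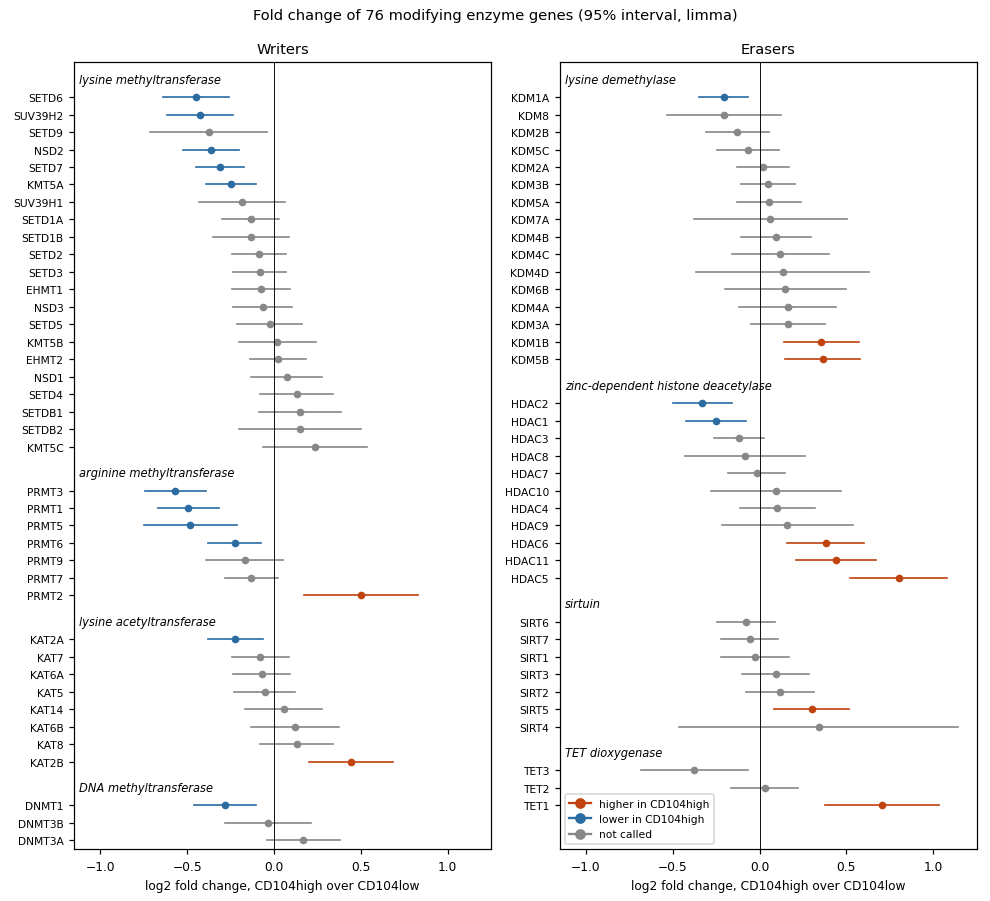
Log2 fold change (CD104high over CD104low, horizontal axis) of each of the 76 members by enzyme class, writers left and erasers right, with points for the limma estimate and bars for the 95% interval. Called members are coloured, with HDAC5 at 0.80 as the highest and PRMT3 at −0.57 as the lowest.

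Summed over all writers, the libraries held 163244, 157332 and 159167 normalised reads in CD104high and 180518, 187262 and 177796 in CD104low. Each CD104high library was below each CD104low library. The erasers summed to 109407, 106500.0 and 103522 in CD104high and 107683, 109254 and 104996 in CD104low, and here the groups overlapped. The reads of erasers per read of writers were therefore 0.67, 0.68 and 0.65 in CD104high and 0.60, 0.58 and 0.59 in CD104low. These sums count reads and not molecules, so long and abundant transcripts weigh most. PRMT1 made up 26.8% of the drop in summed writer reads, NSD2 23.9% and DNMT1 21.3%, together 71.9%. The other 36 writers averaged 105971 ± 1755 in CD104high and 112132 ± 2512 in CD104low (SD, n = 3 each), still without overlap between the groups.

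**Figure D2:**
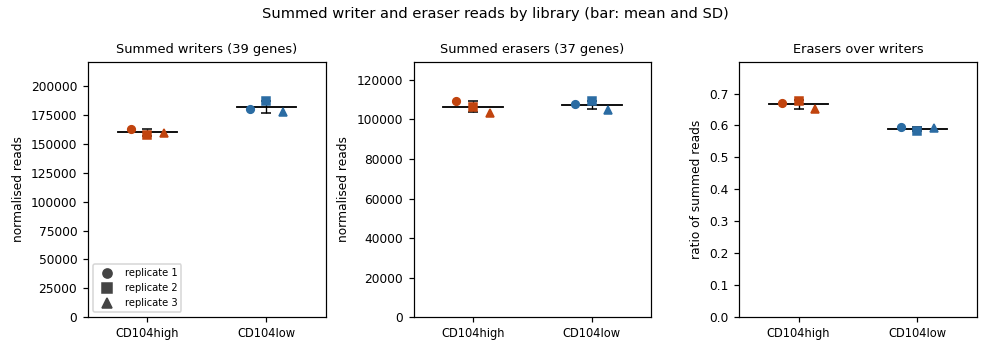
Normalised reads summed over 39 writers and 37 erasers and the ratio of erasers to writers, with 1 point per library, replicate numbers as symbols, and bars for mean and SD. The writers' sums part the groups, at 157332 to 163244 in CD104high and 177796 to 187262 in CD104low, and the erasers' sums do not.

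Other genes moved with the sort, and their part in these results was not tested. Of 39 tested genes of S phase and mitosis 18 were called lower (46.2%, against 11.3% of all tested genes) and 0 higher, with a median log2 fold change of −0.21. Their summed level was 436939, 428091 and 455882 in CD104high and 490869, 500485 and 501657 in CD104low, without overlap. DNMT1, and UHRF1 of the same list, are known to be made mostly by cells in S phase. Without CD104high replicate 1, or without CD104high replicate 2, 10 of these genes were called lower (background 5.61% and 6.33%). Of the interferon-responsive genes (type I), 33 were tested, 26 called higher (78.8%, background 12.1%) and 0 lower. All 36 of them with values, tested or not, summed to 56452, 53544 and 57862 in CD104high and 34304, 33588 and 37474 in CD104low.

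Per kilobase of annotated exon, the members' mean level over the 6 libraries ran from 21.2 for SIRT4, a mitochondrial sirtuin, to 9011 for PRMT1. DNMT1 at 4350.3, HDAC1 at 3685, HDAC3 at 3238 and KDM1A at 2113 followed PRMT1. The median member stood at 426, and 13 of the 14 lower members but 4 of the 9 higher ones lay above it. The median level per kilobase was 1287 for the lower, 313 for the higher and 331 for the members not called.

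Promoters of 70 of the 76 members were matched by symbol in RefSeq (GRCh38.p14), each running from 250 bases before to 50 bases after the annotated start; HDAC5 was not matched. They were searched on both strands for the cAMP response element (CRE, TGACGTCA), its core TGACG, which every CRE contains, the E-box CACGTG, E2F sites (TTTCCCGC and TTTGGCGC), AP-1 (TGANTCA) and the ISRE core of interferon-responsive genes. SETD6, a lower member whose promoter holds an E-box, is not shown. The promoters of 4 other called members are shown, each with a complete CRE, E-box or E2F match in capitals. They are SUV39H2 (chr10:14878616-14878915), PRMT3 (chr11:20387466-20387765) and NSD2 (chr4:1871143-1871442), which were lower in CD104high, and KDM1B (chr6:18155172-18155471), which was higher, all on the plus strand.
SUV39H2: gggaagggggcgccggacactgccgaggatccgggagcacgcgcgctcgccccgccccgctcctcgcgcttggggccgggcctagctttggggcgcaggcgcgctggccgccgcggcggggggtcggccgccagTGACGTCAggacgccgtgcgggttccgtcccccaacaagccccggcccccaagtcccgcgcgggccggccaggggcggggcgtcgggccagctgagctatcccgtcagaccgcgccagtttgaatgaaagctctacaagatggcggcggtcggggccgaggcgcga
PRMT3: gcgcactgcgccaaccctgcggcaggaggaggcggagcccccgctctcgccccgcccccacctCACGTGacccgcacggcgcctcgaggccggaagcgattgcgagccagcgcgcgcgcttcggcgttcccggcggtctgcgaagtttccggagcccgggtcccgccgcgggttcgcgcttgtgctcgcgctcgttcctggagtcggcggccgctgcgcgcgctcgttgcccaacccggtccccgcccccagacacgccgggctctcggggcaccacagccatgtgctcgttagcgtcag
NSD2: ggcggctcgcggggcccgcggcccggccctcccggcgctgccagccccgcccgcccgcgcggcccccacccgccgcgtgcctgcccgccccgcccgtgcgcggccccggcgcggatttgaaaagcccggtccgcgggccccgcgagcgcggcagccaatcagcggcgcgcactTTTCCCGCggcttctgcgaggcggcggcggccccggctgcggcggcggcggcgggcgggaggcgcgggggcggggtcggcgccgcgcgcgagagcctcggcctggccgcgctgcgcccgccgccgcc
KDM1B: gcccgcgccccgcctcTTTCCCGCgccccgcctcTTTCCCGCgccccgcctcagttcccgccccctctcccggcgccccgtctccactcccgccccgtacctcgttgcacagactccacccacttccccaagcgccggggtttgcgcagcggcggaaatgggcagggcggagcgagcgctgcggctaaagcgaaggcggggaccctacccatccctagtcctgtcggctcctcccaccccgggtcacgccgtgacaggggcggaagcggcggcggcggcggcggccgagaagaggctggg
The capitals are the CRE in SUV39H2 at 116 to 109 bases before the start, the E-box in PRMT3 at 187 to 182 before it, the E2F match in NSD2 at 77 to 70 before it, and a pair of E2F matches in KDM1B at 234 to 227 and 216 to 209 before it.

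The same E2F letters thus stand in the promoter of a lower and of a higher member. Shares are set against the 16620 promoters of genes in the deposited table, the set the members come from, and against all 35116 promoters listed. Some genes have several entries in these sets, whereas each member was counted by its first. The CRE was in 1 of the 14 lower members, 0 of the 8 matched higher ones and 1 of the 48 not called, and in 2.63% of the table's promoters and 1.85% of all. The E-box was in 2 lower members (PRMT3 and SETD6, 14.3%), 0 higher ones and 9 not called (18.8%), so that its share was no higher in the lower members, and in 9.04% and 7.26% of promoters. TTTCCCGC was in 1 lower member, 1 higher one and 1 not called, and in 2.35% and 1.63% of promoters. The core TGACG was in 17 of the 70 members, 24.3%, below the 30.8% of the table's promoters and close to the 24.6% of all. TTTGGCGC was in 0 of 70 members (0.957% and 0.652% of promoters), AP-1 in 2 (5.4% and 7.71%) and the ISRE core in 0 (2.92% and 3.57%). A match describes letters in the window and shows no binding.

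Among the 21 lysine methyltransferases 5 were called lower (23.8%, against 11.3% of all tested genes) and 0 higher in CD104high. The class had a median log2 fold change of −0.08, which was −0.03 without CD104low replicate 2 and −0.05 without CD104high replicate 3, and 14 of its members were below 0. SETD6, which methylates the RELA subunit of NF-kappaB, had 1251, 1235 and 1204 normalised reads in the CD104high libraries and 1793, 1696 and 1556 in the CD104low libraries. All CD104high libraries were below all CD104low libraries (log2 fold change −0.45, SE 0.08, adjusted p = 0.00502). Exons of CNOT1 overlap 21.4% of the exon length of SETD6, and with the strand setting of the counting not given, reads from that stretch cannot be assigned to either gene.

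SUV39H2 places the trimethyl mark on lysine 9 of histone H3 in constitutive heterochromatin, and its promoter with a CRE is printed above. It had 1154, 1272 and 1334 normalised reads in the CD104high libraries and 1726, 1657 and 1663 in the CD104low libraries, without overlap (log2 fold change −0.43, SE 0.08, adjusted p = 0.00651). Its paralog SUV39H1 pointed the same way with overlapping groups and was not called (−0.19, adjusted p = 0.254). Other enzymes of the same lysine were not called either: the log2 fold changes of EHMT1 and EHMT2 were −0.07 and 0.02, and those of SETDB1 and SETDB2 were 0.15 and 0.15.

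NSD2 dimethylates lysine 36 of histone H3 and carries an E2F match in the promoter printed above. It had 18973, 18703 and 17195 normalised reads in the CD104high libraries and 23236, 25106 and 22235 in the CD104low libraries. Each CD104high library was below each CD104low library (log2 fold change −0.36, SE 0.07, adjusted p = 0.00661). The related NSD1 and NSD3, which place the same mark, were not called (0.07, adjusted p = 0.607 and −0.07, adjusted p = 0.567), and neither was SETD2, the enzyme of the trimethyl state (−0.08, adjusted p = 0.414). The 95% intervals were −0.13 to 0.28 for NSD1 and −0.23 to 0.10 for NSD3, and −0.52 to −0.20 for NSD2.

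SETD7 monomethylates lysine 4 of histone H3 and a range of other proteins. It had 9159, 8877 and 8804 normalised reads in the CD104high libraries and 11381, 11265 and 10616 in the CD104low libraries, again without overlap (log2 fold change −0.31, SE 0.06, adjusted p = 0.00658). KMT5A, the monomethyltransferase of lysine 20 of histone H4, had 3989.5, 4209 and 3889 normalised reads in the CD104high libraries and 4874, 4839 and 4626 in the CD104low libraries (log2 fold change −0.25, SE 0.07, adjusted p = 0.0232). Its call was lost without CD104high replicate 1 or 3 or CD104low replicate 2 (adjusted p = 0.0741, 0.0839 and 0.0738). KMT5B and KMT5C, which add further methyl groups to that lysine, were not called (0.02, adjusted p = 0.919 and 0.24, adjusted p = 0.233).

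SETD1A, a catalytic subunit of COMPASS, had normalised reads of 3885, 3691 and 3457 in CD104high and 4049.8, 4233 and 3823 in CD104low. SETD1B, the other such subunit with this name, had normalised reads of 2601, 2129 and 2058 in CD104high and 2361, 2621 and 2421 in CD104low. Their groups overlapped and neither was called (−0.13, adjusted p = 0.216 and −0.13, adjusted p = 0.367). With the trend with gene length and GC content removed both were called lower, at −0.30 (adjusted p = 0.00829) and −0.29 (adjusted p = 0.0177). SETD9, another SET domain gene, had the largest fold change among the members not called, at −0.38 (adjusted p = 0.101), with all CD104high libraries below. In limma without the trend SETD9 was called lower (adjusted p = 0.0433), as were 6.53% of all tested genes. SETD3, which methylates a histidine of actin, and the little studied SETD4 and SETD5 had overlapping groups and log2 fold changes of −0.08, 0.13 and −0.02.

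**Figure D3:**
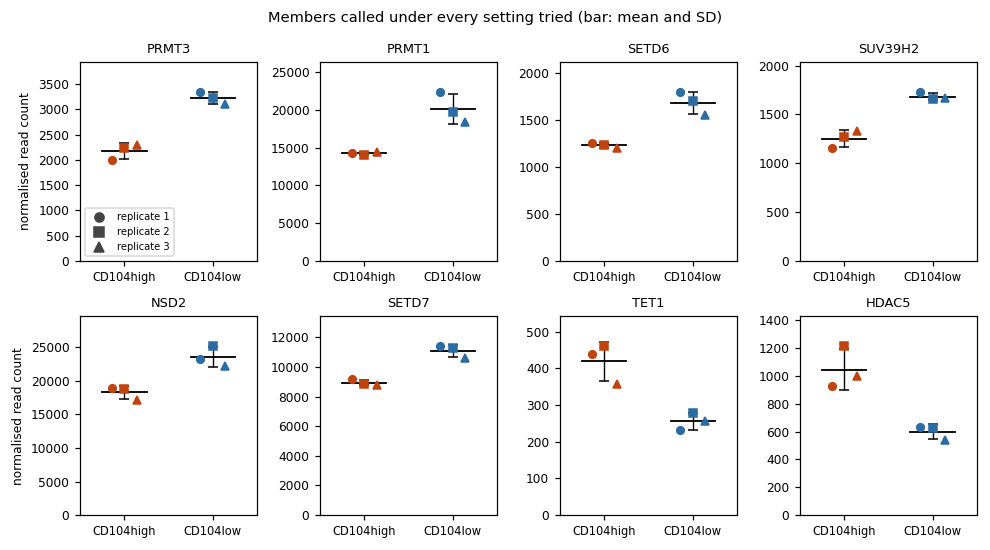
Normalised read counts by library of the 8 members that kept their call in all 18 settings, with symbols for replicate numbers and bars for mean and SD. In the 6 lower members every CD104high library lies below every CD104low library, and in TET1 and HDAC5 every one lies above.

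Of the 7 arginine methyltransferases 4 were called lower and 1 higher, against 11.3% and 12.1% of all tested genes, and without CD104high replicate 1, CD104high replicate 2 or CD104low replicate 1 only 2 were lower. All 7 parted the groups, 6 with every CD104high library below and 1 above, where 41.2% of all tested genes part them, 21.3% below and 19.9% above. The class median was −0.23. PRMT1, which makes most of the asymmetric dimethylarginine in cells, had 14262, 14009 and 14485 normalised reads in the CD104high libraries and 22335, 19687 and 18375 in the CD104low libraries. The CD104high libraries lay close together, below all CD104low libraries (log2 fold change −0.49, SE 0.08, adjusted p = 0.00232). PRMT3, a cytosolic enzyme that methylates the ribosomal protein RPS2 and whose promoter holds the E-box shown above, had 2002, 2233 and 2298 normalised reads in the CD104high libraries and 3336, 3227 and 3107 in the CD104low libraries. It had the largest fall of all members, 1.48-fold lower (log2 fold change −0.57, SE 0.08, adjusted p = 0.00121).

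PRMT5 is the main enzyme of symmetric dimethylarginine. It had 2954, 2575 and 3626 normalised reads in the CD104high libraries and 4636, 3881 and 4164 in the CD104low libraries, without overlap but with a wide spread (log2 fold change −0.48, SE 0.12, adjusted p = 0.0178). Its call was lost without CD104high replicate 1 or 2 or CD104low replicate 1 (adjusted p = 0.0719, 0.0651 and 0.0602), and PRMT5-AS1 overlaps 27.1% of its exon length. PRMT6, which methylates arginine 2 of histone H3, was lower at −0.23, adjusted p = 0.0385. Leaving out any library but CD104low replicate 3 ended that call (adjusted p = 0.0757 to 0.118), as did removing the length and GC trend (adjusted p = 0.0507).

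PRMT7, a monomethyltransferase, and PRMT9, which methylates a splicing factor, were below in every CD104high library without passing the test (−0.13, adjusted p = 0.194 and −0.17, adjusted p = 0.247). PRMT2, a coactivator of nuclear receptors with weak enzyme activity, moved the other way. It had 6115, 5974 and 8514 normalised reads in the CD104high libraries and 4346, 4388 and 5765 in the CD104low libraries. Both libraries numbered 3 were the highest of their groups, yet all CD104high libraries were above all CD104low libraries (log2 fold change 0.50, SE 0.15, adjusted p = 0.0341). The call was lost without CD104high replicate 1 or 3 or CD104low replicate 1 or 2 (adjusted p = 0.0617, 0.0781, 0.109 and 0.101). Reads of PRMT2 per read of PRMT1 were 0.48 ± 0.09 in CD104high and 0.24 ± 0.06 in CD104low (SD, n = 3 each), a pair chosen after the values were seen.

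Of 4 partners of PRMT5, 3 were called lower, against 11.3% of all tested genes, and 1 was not called. The group was not planned beforehand and its lower genes were named for their small p, so the count is a description only. WDR77, the obligate partner in the methylosome, had 2335, 2603 and 2323 normalised reads in the CD104high libraries and 3595, 3844 and 3653 in the CD104low libraries (log2 fold change −0.61, SE 0.07, adjusted p = 0.000705). RIOK1, an adaptor that brings nucleolin to PRMT5, had 1714, 1823 and 1689.7 normalised reads in the CD104high libraries and 2662, 2712 and 2561 in the CD104low libraries (log2 fold change −0.60, SE 0.07, adjusted p = 0.000687). CLNS1A, the adaptor for spliceosomal Sm proteins, was lower at −0.28, adjusted p = 0.0117, and without CD104high replicate 1 its adjusted p was 0.0501. COPRS, the adaptor for histones, had overlapping groups (0.10, adjusted p = 0.544) and is named after its values were seen. These genes belong to a list of heterochromatin proteins, methyl-mark readers and PRMT5 partners, of which 7 of 36 tested were lower (19.4%, background 11.3%) and 1 higher, with a median of −0.11. SPINDOC, which binds the histone reader SPIN1, was among the lower ones (−0.35, adjusted p = 0.00984). Leaving out a library gave between 4 and 7 lower genes in that list, the fewest without CD104high replicate 1.

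**Figure D4:**
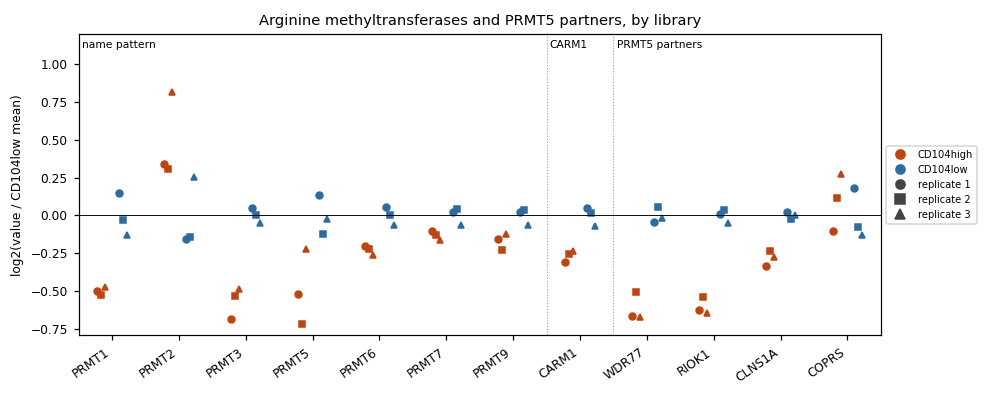
Level of each arginine methyltransferase, of CARM1 and of 4 PRMT5 partners in each library, as log2 of the value over the CD104low mean (vertical axis), with colours for groups and symbols for replicate numbers. CD104high libraries lie below CD104low libraries in all genes shown but PRMT2, where they lie above, and COPRS, where the groups mix.

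CARM1, the arginine methyltransferase known as PRMT4 that the name pattern misses, is in a list of 28 tested related enzymes, of which 5 were lower (17.9%, background 11.3%) and 0 higher with a median of −0.06, which was −0.10 without CD104high replicate 1. CARM1 itself had 5881, 6093 and 6176 normalised reads in the CD104high libraries and 7539, 7371 and 6919 in the CD104low libraries (log2 fold change −0.27, SE 0.06, adjusted p = 0.0156). Its call was lost without CD104high replicate 1 or 2 or CD104low replicate 2 (adjusted p = 0.062, 0.0512 and 0.055). RIOX2 and JMJD6, hydroxylases of the JmjC fold, were lower at −0.48, adjusted p = 0.00401 and −0.44, adjusted p = 0.00677, and SMYD5, a SET and MYND domain methyltransferase, at −0.43, adjusted p = 0.0064. The fifth was HAT1, which acetylates newly made histone H4 (−0.41, adjusted p = 0.0488), a gene named after its values were seen and not called without CD104high replicate 1 or 2 or CD104low replicate 1 (adjusted p = 0.183, 0.103 and 0.1). Its log2 fold change was −0.25 without CD104low replicate 1, and with the length and GC trend removed it was −0.29 and not called (adjusted p = 0.0846). Without CD104high replicate 1, or without CD104high replicate 2, 3 of the list were lower. The largest log2 fold change in the list was 0.98, in a gene not called here. DESeq2 and the replicate block each called 1 gene of the list higher (background 14% and 17.4%). Removing the length and GC trend gave 2 higher (background 13%), and 3 when paired as well (background 19.1%).

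Of 8 lysine acetyltransferases 1 was higher and 1 lower, 12.5% each and near the background of 12.1% and 11.3%, and these were the paralogs KAT2B and KAT2A, which occupy the same catalytic position in the SAGA and ATAC complexes. KAT2B had 2414, 2772 and 3104 normalised reads in the CD104high libraries and 1999, 1841 and 2245 in the CD104low libraries, all CD104high above all CD104low (log2 fold change 0.44, SE 0.11, adjusted p = 0.016). KAT2A had 4195, 3948 and 4139.9 normalised reads in the CD104high libraries and 5122, 4680.1 and 4550.2 in the CD104low libraries, all CD104high below all CD104low (log2 fold change −0.22, SE 0.07, adjusted p = 0.0453). Reads of KAT2B per read of KAT2A were 0.68 ± 0.09 in CD104high and 0.43 ± 0.06 in CD104low (SD, n = 3 each), a ratio formed after the values were seen. Removing CD104high replicate 2 or CD104low replicate 2 (adjusted p = 0.056 and 0.0572) ended the call of KAT2B, and removing any library but CD104low replicate 3 ended that of KAT2A (adjusted p = 0.0874 to 0.147), as did total-read scaling (adjusted p = 0.0523).

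The other acetyltransferases, KAT5 of the NuA4 complex, KAT6A and KAT6B of the MOZ/MORF complexes, KAT7 of HBO1, KAT8 of MSL and NSL, and KAT14 of ATAC, had overlapping groups and fold changes between −0.08 and 0.13. Subunits of these complexes outside the pattern numbered 48, of which 7 were lower (14.6%, near the 11.3% of all tested genes) and 1 higher. Their median was −0.12, and 37 of 48 were below 0, as were 7003 of the 14343 tested genes. The ATPases RUVBL1 and RUVBL2, shared with the INO80 complex and with other assemblies, were among the lower ones. RUVBL1 had 3051, 3303 and 3402 normalised reads in the CD104high libraries and 5625, 4822 and 4495 in the CD104low libraries (log2 fold change −0.61, SE 0.09, adjusted p = 0.00176). RUVBL2 was lower at −0.50, adjusted p = 0.00393, ACTL6A, an actin-like subunit also found in BAF complexes, at −0.33, adjusted p = 0.0114, and KANSL2 of the NSL complex at −0.42, adjusted p = 0.0158. ING4, a reader subunit of HBO1 and the 1 higher member, is named after its values were seen (0.39, adjusted p = 0.019), and its call was lost without any CD104high library or CD104low replicate 2 (adjusted p = 0.0525 to 0.066). The number of lower subunits was 3 without CD104high replicate 1 or CD104high replicate 2, 4 without CD104low replicate 2, 11 in a fit paired by replicate number, which calls 15.4% of all tested genes lower, and 13 with the length and GC trend removed. ACTL6A had an adjusted p of 0.0505 without CD104high replicate 1, and KANSL2 was not called without CD104high replicate 1 or 2 or CD104low replicate 2 (adjusted p = 0.0513, 0.0549 and 0.0567).

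DNMT1, which copies methylation onto the new DNA strand, was the lower member of the 3 DNA methyltransferases. It had 22139, 20209.9 and 21856 normalised reads in the CD104high libraries and 23329, 27609 and 27269 in the CD104low libraries. All CD104high libraries were below all CD104low libraries (log2 fold change −0.28, SE 0.08, adjusted p = 0.0319). Its call was lost on leaving out any library but CD104low replicate 1 (adjusted p = 0.0601 to 0.118) and with total-read scaling (adjusted p = 0.0515). The de novo enzymes did not pass: DNMT3A was above in every CD104high library (0.17, adjusted p = 0.226), and DNMT3B overlapped (−0.03, adjusted p = 0.854).

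Of 23 tested genes around DNA methylation 5 were lower (21.7%, background 11.3%) and 1 higher, with a median of −0.16, which was −0.10 with the length and GC trend removed. UHRF1, which guides DNMT1 to hemimethylated DNA, was at −0.32, adjusted p = 0.013, is also in the list of S phase and mitosis, and had an adjusted p of 0.0583 without CD104high replicate 2. CDCA7, a partner of the remodeller HELLS, had 2409.7, 2666 and 2562 normalised reads in the CD104high libraries and 3992, 4045 and 3792 in the CD104low libraries (log2 fold change −0.63, SE 0.07, adjusted p = 0.00046). USP7, a deubiquitinase that binds DNMT1 and UHRF1, was lower (−0.39, adjusted p = 0.00573), and so were the uracil glycosylase UNG (−0.29, adjusted p = 0.00864) and the thymine glycosylase TDG, which excises oxidised methylcytosine and is named after its values were seen (−0.41, adjusted p = 0.0129). The glycosylase NEIL1 was the higher one (0.73, adjusted p = 0.00732).

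TET1, which oxidises methylcytosine as the first step of its removal, was the higher one of the 3 TET genes. It had 439.7, 459.6 and 358 normalised reads in the CD104high libraries and 233, 279 and 256 in the CD104low libraries, all CD104high above all CD104low (log2 fold change 0.70, SE 0.15, adjusted p = 0.00781), at 36.3 normalised reads per kilobase one of the scarcer members. TET3 had 1479, 1331 and 1119.6 normalised reads in the CD104high libraries and 1581, 2041 and 1489 in the CD104low libraries, below in every CD104high library, and was not called (log2 fold change −0.37, SE 0.14, adjusted p = 0.0754). A fit that pairs the libraries by replicate number called it lower (adjusted p = 0.0181), as it did 15.4% of all tested genes. Pairing was not the only setting to do so, as DESeq2 also called TET3 lower (adjusted p = 0.0319). Removing the length and GC trend gave an adjusted p of 0.0239, and 0.00109 when paired as well. Dropping CD104low replicate 3 gave 0.0385, and dropping replicate 3 from each group gave 0.0494. In 12 of the 18 settings TET3 stayed not called. TET2 had overlapping groups (0.03, adjusted p = 0.84, 95% interval −0.16 to 0.22). Reads of TET1 per read of TET3 were 0.32 ± 0.02 in CD104high and 0.15 ± 0.02 in CD104low (SD, n = 3 each), a pair chosen after the values were seen. The 3 TET genes together summed to 3717, 3711 and 3211 in CD104high and 3564, 4263 and 3402 in CD104low, with overlap.

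Of 16 lysine demethylases 2 were higher (12.5%) and 1 lower (6.25%), at or below the 12.1% and 11.3% of all tested genes, and 0 were called without CD104high replicate 1 or CD104low replicate 1. A fold change above 0 was seen in 12, with a median of 0.08. The median was 0.03 without CD104high replicate 1 and with the length and GC trend removed, 0.05 without CD104low replicate 3, 0.12 without CD104high replicate 3 and 0.13 without CD104low replicate 2. The amine oxidase pair moved in opposite directions. KDM1A (LSD1), the demethylase of the CoREST complex, had 6052, 6238 and 6118 normalised reads in the CD104high libraries and 7319, 7204 and 6717 in the CD104low libraries (log2 fold change −0.21, SE 0.06, adjusted p = 0.0415). KDM1B (LSD2), which works in gene bodies and whose promoter with a pair of E2F matches is printed above, had 2527, 2280.0 and 2839 normalised reads in the CD104high libraries and 1836, 1993 and 2133 in the CD104low libraries (log2 fold change 0.36, SE 0.10, adjusted p = 0.0257). Neither pair of groups overlapped, and KDM1B read per KDM1A read was 0.42 ± 0.05 in CD104high and 0.28 ± 0.03 in CD104low (SD, n = 3 each), a pair chosen after the values were seen. The call of KDM1B was lost without CD104high replicate 1 or 3 or CD104low replicate 1 or 2 (adjusted p = 0.0797, 0.0859, 0.0718 and 0.063). That of KDM1A was lost without any library but CD104low replicate 3 (adjusted p = 0.0736 to 0.121) and with total-read scaling (adjusted p = 0.0506).

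KDM5B, which removes methyl groups from lysine 4 of histone H3, was the 1 called gene among the 14 demethylases of the JmjC type. It had 4636, 4479.5 and 3822 normalised reads in the CD104high libraries and 3008, 3621 and 3429.6 in the CD104low libraries, all CD104high above all CD104low (log2 fold change 0.36, SE 0.10, adjusted p = 0.023). Its call was lost without CD104high replicate 1 or 2 or CD104low replicate 1 (adjusted p = 0.0962, 0.085 and 0.0625). Its paralogs KDM5A and KDM5C, which act on the same mark, had overlapping groups (0.05, adjusted p = 0.685 and −0.07, adjusted p = 0.585). The remaining 11 ranged from −0.20 for KDM8 to 0.16 for KDM3A, a demethylase of lysine 9, and all had overlapping groups. KDM2A, a CpG-binding demethylase of lysine 36, had the most reads of them, 12325 to 13154 in CD104high and 11741 to 12871 in CD104low.

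Of 11 zinc-dependent deacetylases 3 were higher (27.3%, background 12.1%) and 2 lower (18.2%, background 11.3%). Class I holds HDAC1, HDAC2 and HDAC3, the catalytic subunits of nuclear corepressor complexes, and HDAC8. Of these 4 enzymes 0 were higher and 2 lower. The other 7, of classes IIa, IIb and IV, had 3 higher and 0 lower. Summed class I reads were 22432, 23194 and 22395 in CD104high and 28955, 26303 and 25465 in CD104low, and those of the other 7 were 14703, 13400 and 13743 in CD104high and 12168, 11689 and 11942 in CD104low. Neither sum overlapped between the groups. The split by class was described after the values were known, and the class as a whole had a median of 0.10, which was −0.08 with the length and GC trend removed. It was 0.03 without CD104high replicate 1, 0.05 without CD104high replicate 2, and 0.04 without CD104high replicate 3 or CD104low replicate 1.

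HDAC2 had 8522, 9310.4 and 9308 normalised reads in the CD104high libraries and 12472, 11016 and 10648 in the CD104low libraries (log2 fold change −0.33, SE 0.08, adjusted p = 0.0136). HDAC1, its close paralog in the NuRD, SIN3 and CoREST complexes, had 7452, 7389.8 and 6612 normalised reads in the CD104high libraries and 9141, 8416 and 7957 in the CD104low libraries (log2 fold change −0.25, SE 0.08, adjusted p = 0.0412). In both, all CD104high libraries were below all CD104low libraries. HDAC2 was no longer called without CD104high replicate 1 (adjusted p = 0.0634), and HDAC1 without any library but CD104low replicate 3 (adjusted p = 0.0733 to 0.14) and with the length and GC trend removed (adjusted p = 0.0802). HDAC3, the enzyme of the NCoR and SMRT corepressors, was below in every CD104high library and was not called (−0.12, adjusted p = 0.21), and HDAC8 overlapped (−0.08, adjusted p = 0.732).

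HDAC5, a class IIa enzyme that shuttles between nucleus and cytoplasm in answer to kinases and represses MEF2 targets, had the largest fold change of all members. It had 928, 1212 and 997 normalised reads in the CD104high libraries and 633, 624 and 537 in the CD104low libraries, 1.75-fold higher without overlap (log2 fold change 0.80, SE 0.12, adjusted p = 0.00214). The related HDAC4, HDAC7 and HDAC9 had overlapping groups and fold changes of 0.10, −0.02 and 0.16. HDAC6, the cytoplasmic deacetylase of tubulin, had 5042, 3989 and 4839.7 normalised reads in the CD104high libraries and 3619, 3222 and 3778 in the CD104low libraries (log2 fold change 0.38, SE 0.10, adjusted p = 0.0217). HDAC11, the class IV enzyme, which removes fatty acyl groups from lysine, had 1337, 1208 and 1166 normalised reads in the CD104high libraries and 1016, 866 and 853 in the CD104low libraries (log2 fold change 0.44, SE 0.10, adjusted p = 0.0133). HDAC6 was not called without CD104high replicate 1 or 3 or CD104low replicate 2 (adjusted p = 0.0929, 0.0611 and 0.0757), and HDAC11 not without CD104high replicate 1 (adjusted p = 0.0649). Neither overlapped between the groups, and HDAC10 did (0.10, adjusted p = 0.719).

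**Figure D5:**
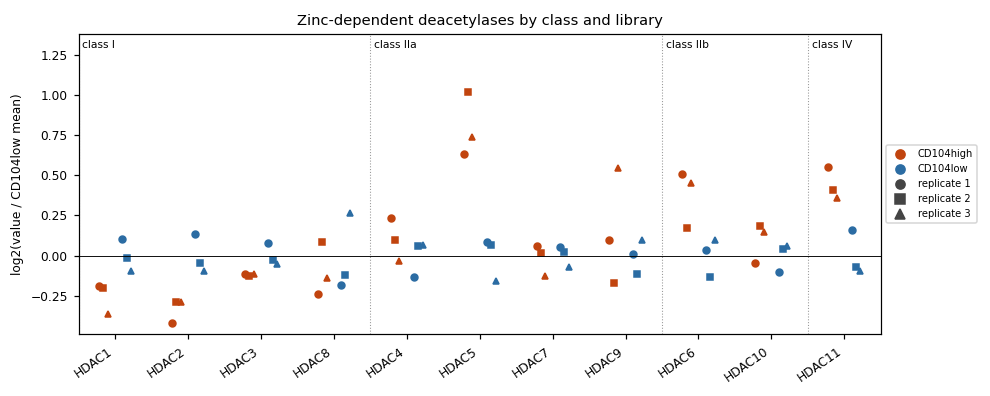
Level of the 11 zinc-dependent deacetylases in each library, as log2 of the value over the CD104low mean (vertical axis), ordered by class, with colours for groups and symbols for replicate numbers. HDAC1, HDAC2 and HDAC3 lie below in CD104high, HDAC5, HDAC6 and HDAC11 above, and the other 5 genes have overlapping groups.

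Subunits of the corepressor complexes of HDAC1, HDAC2 and HDAC3 were lower in 6 of 43 tested genes (14.0%, near the 11.3% of all tested genes) and higher in 0. Their median was −0.06. MTA2, GATAD2A and MBD2 of the NuRD complex were among them. MTA2 had 12658, 12259 and 12079 normalised reads in the CD104high libraries and 17204, 15888 and 14919 in the CD104low libraries (log2 fold change −0.37, SE 0.07, adjusted p = 0.00488). GATAD2A was at −0.38, adjusted p = 0.00268 and MBD2, which binds methylated DNA, at −0.32, adjusted p = 0.0109, and BRMS1 of the SIN3 complex was at −0.44, adjusted p = 0.00355. In all 4 genes every CD104high library was below every CD104low library. Leaving out a library gave 4 to 7 lower genes, with 4 without CD104high replicate 1, CD104high replicate 2 or CD104low replicate 1, and the paired fit called 8 lower and 3 higher, where it calls 15.4% and 17.4% of all tested genes.

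Of 7 sirtuins, which use NAD, 1 was called higher (14.3%, near the 12.1% of all tested genes) and 0 lower. SIRT5, a mitochondrial enzyme that removes succinyl and other acidic acyl groups, was the called one, at 749, 791 and 789 normalised reads in the CD104high libraries and 659, 605 and 627 in the CD104low libraries (log2 fold change 0.30, SE 0.10, adjusted p = 0.0478). The groups did not overlap, but the call was lost without each of the 6 libraries in turn (adjusted p = 0.0525 to 0.138) and with no filter on low values (adjusted p = 0.0522). SIRT7, a nucleolar deacetylase with the highest level per kilobase in the class, had normalised reads of 2362, 2531 and 2415 in CD104high and 2571, 2652 and 2382 in CD104low and was not called (95% interval −0.22 to 0.11). SIRT1, the nuclear founding member, was not called either (−0.03, 95% interval −0.22 to 0.17). The deacetylases SIRT2 of the cytoplasm, SIRT3 of mitochondria and SIRT6 of chromatin had overlapping groups, at 0.12, 0.09 and −0.08. SIRT4, at 18.7 to 39.7 reads in any library, had an interval of −0.46 to 1.14, too wide to tell a difference from none.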

How the data were processed

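Total RNA of 6 sorted MDA-MB-231 samples, 3 CD104high and 3 CD104low, was analysed, grouped by the sample titles. Per the submitters' processing notes, the tools were DESeq2 1.30.1, featureCounts 1.5.0, STAR 2.4.0 and FastQC, on build GRCh38.p13 (hg38), with no roles given. The strand setting of the counting is not given in the sources used here. Per-library values are a normalised signal: what the authors deposited are read counts per gene over a size factor of the library. The authors also deposited log2 fold changes with standard errors, p-values, raw and adjusted (1193 of the adjusted ones are blank), and a test statistic, a score. Of the deposited table, 4869 row numbers below 19893 are not used here, and no value is 0, so genes with no read in some library were not analysed here. There were 0 columns of other samples. Whole reads were recovered from the size of 1 read in each library (99.993% or more within 0.1 of an integer) and came to 52088604 to 56958065 per library. For CD104high replicate 2 that size is 0.993, close to 1, so tests on counts stand only as alternatives.

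As the values proved normalised, the test was limma 3.58.1 (R 4.3.3, trended variance) on log2(value + 1), the choice made for that case in place of a count test. This scale understates the change of low genes. A gene was tested where 3 or more libraries of either group reached 10, which 14343 did and 681 did not, and no member among these. The procedure was tested on simulated data. Replicates are labelled biological, but separate cultures or sorts are not stated, so the spread behind each p-value may be technical. Same-numbered libraries deviated together (correlations 0.17, 0.32 and 0.48 for numbers 1 to 3, each library highest with its own number), so the numbers may pair the samples. For CD104low replicate 1 the margin was small, with a correlation of 0.13 with CD104high replicate 2. Such pairing would rest on the data alone, as the labels do not say it. The unpaired test stayed the one reported.

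The members, the gene lists and the alternatives were chosen with earlier results of these data known. Named were every called member, in each class the member with the largest fold change and the one with the highest level per kilobase, SETD1A and SETD1B, up to 4 genes of each list with the smallest p, and ITGB4 and CD44. The remaining members are named by family, whatever their values, and other genes are said to be named after their values were seen. Levels per kilobase and gene length are from merged exons of GENCODE release 29 (GRCh38, basic set), matched for 14994 genes and all 76 members. Gene overlaps are from merged exons of the full annotation of that release, and GC content is that of the longest transcript of a gene. Alternatives were edgeR 4.0.16 with TMM and with the deposited size factors, DESeq2 1.42.0, total-read scaling, pseudocounts of 0.1 and 5, no filter, no trend, a replicate block, removal of the length and GC trend (mgcv 1.9.3), and libraries left out.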

Additional observations from a re-analysis of the deposited data

How the results depend on the processing

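The count of called genes was 3355, and 2173 in limma without the trend, with 4 members higher and 7 lower in place of 9 and 14 (background 8.62% and 6.53%), and 13 of the 23 calls lost (adjusted p = 0.059 to 0.119). With the replicate block it was 4706, with 9 members higher and 15 lower (background 17.4% and 15.4%), and the block changed the call of no named member but TET3. The replicate block with length and GC removed gave 5345, and 10 members higher and 21 lower (19.1% and 18.2%). Leaving out 1 library gave 1805 to 3314 called genes, 3 to 8 members higher and 6 to 14 lower, the fewest without CD104high replicate 1. Without both libraries numbered 3 there were 8 members higher and 9 lower (12.6% and 10.5%). DESeq2 called 3905 genes, edgeR 3349 with TMM and 3328 with the deposited size factors, with 9 members higher in each and 15 lower in DESeq2 (14% and 13.2%), 14 lower in edgeR with TMM (11.8% and 11.6%) and 14 lower with the size factors (11.9% and 11.3%). Total-read scaling gave 9 and 11 (12.8% and 10.2%), no filter 8 and 14 (11.4% and 10.6%), and removing the length and GC trend 9 and 17 (13% and 13.7%). The writers' median kept its sign throughout, as did the erasers'. In total 9 members that were not called passed under at least 1 setting.

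With 3 libraries a group, changes as small as those here sit near the threshold, and 15 of the 23 calls were lost without at least 1 library. RNA levels say nothing of protein, of enzyme activity or of the marks themselves. Reads of genes with overlapping exons, among them PRMT5, SETD6, SIRT5 and KAT2A, cannot be assigned where the strand setting is not given.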

Other observations

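Genes that supply the cofactors of these enzymes moved in both directions. Of 26 tested genes around S-adenosylmethionine, acetyl-CoA, NAD and 2-oxoglutarate 7 were higher (26.9%, against 12.1% of all tested genes) and 3 lower (11.5%, against 11.3%) in CD104high. The median log2 fold change was 0.04, and it was 0.07, 0.08 and 0.09 without CD104high replicate 1, CD104high replicate 2 and CD104low replicate 3 and 0.06 with the length and GC trend removed. ACSS2, which makes acetyl-CoA from acetate in nucleus and cytosol, had 7821, 9133 and 10757 normalised reads in the CD104high libraries and 4780.3, 5505 and 5750.0 in the CD104low libraries (log2 fold change 0.78, SE 0.11, adjusted p = 0.00161). SLC25A1, the mitochondrial citrate carrier that feeds cytosolic acetyl-CoA, was higher at 0.49, adjusted p = 0.00251. In both, all CD104high libraries were above all CD104low libraries.

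On the methyl side, MTRR, which reactivates methionine synthase, had 2546, 2652 and 2653 normalised reads in the CD104high libraries and 4171, 3802 and 3541 in the CD104low libraries (log2 fold change −0.55, SE 0.08, adjusted p = 0.00134). IDH3A, a subunit of the mitochondrial enzyme that makes 2-oxoglutarate, was lower at −0.55, adjusted p = 0.000914. AHCY, which clears the product inhibitor S-adenosylhomocysteine, was lower at −0.40, adjusted p = 0.00518, and NNMT, which spends S-adenosylmethionine on nicotinamide, was higher at 0.43, adjusted p = 0.0209. Both are named after their values were seen. The call of NNMT was lost without CD104high replicate 1 or 2 or CD104low replicate 2 (adjusted p = 0.0759, 0.083 and 0.0503), and leaving out a library gave 5 to 7 higher and 3 lower genes in the list.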
